A study of Mus musculus with 4 samples.

Results

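The nuclear genes of the respiratory chain and the ATP synthase were followed on 4 two-colour microarrays of mouse dentate gyrus RNA. Features were taken by gene symbol: those starting with Nduf (complex I), Sdha to Sdhd (complex II), Uqcr (complex III), Cox and a digit (complex IV) or Atp5 (complex V, the ATP synthase). Of the 16281 features of the table, 83 carried such a symbol. Of these, 6 held no value on any array, which left 77 member features of 68 genes. Values on all 4 arrays were available for 62 of these features, from 56 genes: 27 of complex I, 3 of complex II, 6 of complex III, 11 of complex IV and 9 of complex V. Of the 83 features, 74.7% had a value on every array, against 55.9% of all features with 1 symbol.

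Each array set dentate gyrus RNA of young male C57BL/6J mice given saline (5 µL per g body weight, Cy3 label) against RNA of mice of the same kind given MK-801, a blocker of the NMDA receptor channel (Cy5 label, 300 µg per g as the labels print it). There was 1 array for each of 1, 2, 4 and 6 h, and both channels of an array came from the same time. The labels count these hours from a last shock and call both RNAs those of control mice, so whether the mice were shocked is not settled, nor is the number of animals in a pool. Values are log ratios read as log2, after the median of 6661 named genes measured on all 4 arrays was subtracted from each array. The log base and the direction of the ratio are not stated. Positive and negative below therefore give the sign of the deposited value, and name no treatment as the higher one. The arrays held between 10185 and 12227 features with a value. The 1 h array stood apart: over the 56 member genes its ratios correlated at -0.06, -0.05 and -0.14 with those at 2, 4 and 6 h, while the later arrays correlated at 0.40 to 0.78 among themselves (Pearson, across genes that share the arrays, as a description). The ratios give no level of a transcript, so the presence of granule cells cannot be read from them. Of 12 granule cell markers, 4 had a value on every array. In RNA of whole tissue, fewer cells of a type and less RNA per cell cannot be told apart.

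Complexes I and II pass electrons from NADH and succinate to coenzyme Q, complex III passes them on to cytochrome c, and complex IV hands them to oxygen. Protons pumped by complexes I, III and IV drive the ATP synthase, whose F1 head makes ATP and whose Fo part holds the ring that turns in the membrane. Neurons draw most of their ATP from this chain, and most of its subunits are encoded in the nucleus. No feature of a mitochondrially encoded subunit had a value on all 4 arrays.

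Promoters of nuclear respiratory chain genes are known for binding nuclear respiratory factor 1 (NRF1), the Ets factor GABP and YY1. The stretches below show what such sites look like in 3 members whose ratios were of the same sign on all 4 arrays, Ndufs3, Uqcr11 and Cox16, and in Cox5b, the gene with the largest mean ratio among the 56 measured on all 4 arrays, which holds none of the letters searched. They run from 120 bases before to 20 bases after the gene's start in RefSeq (GRCm38.p6), and capitals mark CCGGAAG or its reverse complement (Ets core) and CGCATGCG (NRF1 palindrome).

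Ndufs3, chr2:90904702-90904841, minus strand: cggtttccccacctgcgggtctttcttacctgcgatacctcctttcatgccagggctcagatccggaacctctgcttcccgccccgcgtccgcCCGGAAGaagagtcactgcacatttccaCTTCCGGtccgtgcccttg
Uqcr11, chr10:80406802-80406941, minus strand: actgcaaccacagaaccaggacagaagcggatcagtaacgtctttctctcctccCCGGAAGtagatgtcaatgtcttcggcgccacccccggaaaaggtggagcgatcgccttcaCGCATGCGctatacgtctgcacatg
Cox5b, chr1:36691367-36691506, plus strand: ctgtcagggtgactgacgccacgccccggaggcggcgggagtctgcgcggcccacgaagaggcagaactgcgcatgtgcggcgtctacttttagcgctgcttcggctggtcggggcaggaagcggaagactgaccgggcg
Cox16, chr12:81485118-81485257, minus strand: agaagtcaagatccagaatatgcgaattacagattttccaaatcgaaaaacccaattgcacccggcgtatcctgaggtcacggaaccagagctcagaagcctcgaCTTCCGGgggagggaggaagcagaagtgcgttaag

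Start-site windows of 300 bases (250 before and 50 after the start) were listed for 57 of the 68 member genes, 62 windows in all. On either strand, CGCATGCG occurred in 16.1% of these windows, against 3.90% of the 6948 windows of all genes tested on the arrays and 1.87% of all 32851 windows. CCGGAAG occurred in 22.6%, against 15.2% and 8.86%. AAGATGGC, the core bound by YY1, occurred in 12.9%, against 3.97% and 2.75%. Each motif was thus found in a larger share of the members' windows than of the other windows, which is a description of letters and not of binding. None of these motifs contains another. The median mean ratio was 0.13 in the 21 measured genes with at least 1 of the motifs and 0.06 in the 28 with none, and both groups spanned values below and above 0 (-0.19 to 0.26 and -0.17 to 0.33). The motifs differed in this: the medians with and without were 0.21 and 0.06 for CGCATGCG (7 genes with it), 0.02 and 0.06 for CCGGAAG (10 genes) and 0.15 and 0.06 for AAGATGGC (6 genes). At 1 h the median of genes with any motif was the lower one, 0.00 against 0.11.

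Across the 56 genes most ratios were small, and most lay above 0 on each array, at 4 h only narrowly. The medians at 1, 2, 4 and 6 h were 0.08, 0.09, 0.01 and 0.12, where the median of all genes is 0 by construction. Positive ratios were found for 40, 40, 31 and 43 of the 56 genes at 1, 2, 4 and 6 h, or 71.4%, 71.4%, 55.4% and 76.8%, against 50.0% of all genes at each time. The share at 4 h was thus near that of all genes. The count at 1 h was lower under other centrings: 35 with no centring and 34 with each array centred on all its deposited values. The share of all genes was not counted under those centrings. On every array 18 members were positive (32.1%, against 12.8% of all genes) and 2 were negative (3.57%, against 12.4%). Ratios of the same gene on the 2, 4 and 6 h arrays are correlated over all genes, so these shares do not come from independent arrays.

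Large ratios were rare. At 1 h 1 member, Cox7a1 (-0.55), lay at or below -0.5, and none lay at or above 0.5, against 4.55% and 4.28% of all genes. At 2 h Ndufa9 (0.61) was the only gene of the 56 at or above 0.5 (1.19% of all genes) and none lay at or below -0.5 (2.37%). At 4 h the same held for Ndufaf7 (0.92) against 2.57% and 3.36%. At 6 h no member gene passed either limit, against 1.85% and 2.66%.

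**Figure D1:**
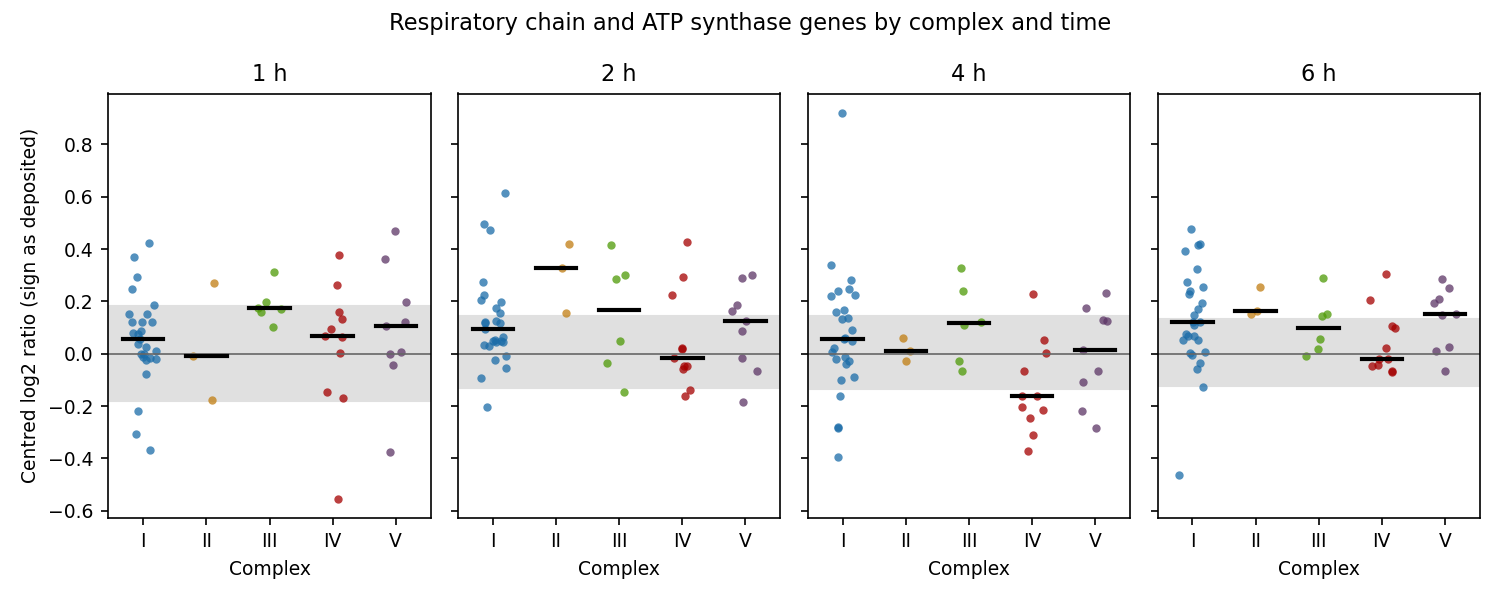
Centred log2 ratio (vertical axis) of each member gene by complex (horizontal axis), 1 panel per time and 1 array per panel. Points are genes, black bars are medians of a complex, and the grey band spans the middle of all 6661 genes from the lower to the upper quartile. The bars of complexes I, III and V lie above 0 in every panel, and the complex IV bar lies at -0.16 at 4 h.

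In the limma fit that asked whether the mean of the 4 ratios differed from 0, 0 of 56 members passed an adjusted p of 0.05, as did 0.00% of the 6661 genes. The lowest adjusted p among the members was 0.229, for Cox5b. At an unadjusted p under 0.05, 13 members had a positive mean (23.2%, against 8.17% of all genes) and 1, Cox16, a negative mean (1.79%, against 7.03% of all genes). The 13 were Ndufs3, Ndufa4, Ndufa8, Ndufa9, Ndufa12 and Ndufaf3 of complex I by symbol, Uqcrc1, Uqcrb, Uqcrq and Uqcr11 of complex III, Cox5b of complex IV, and Atp5g1 and Atp5g2 of the ATP synthase. With each array centred on the median of all its deposited values the counts were 9 and 2, beside 456 positive and 520 negative of all 6661 genes (544 and 468 with the centring used here).

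Leaving out the 1 h array changed these calls. Over 2, 4 and 6 h, limma placed 3 members past the threshold, all positive, or 5.36%, close to the 7.06% of all genes called positive there (5.89% were called negative). They were Ndufaf3 (adjusted p = 0.0262), Cox5b (0.0357) and Ndufa10 (0.0491). At an unadjusted p under 0.05 the counts without 1 h were 17 positive and 2 negative (1211 and 1089 of all genes). Without the 2, 4 or 6 h array in turn, 6, 6 and 3 members were positive and 0 negative at that limit (311, 228 and 216 of all genes positive, 330, 231 and 220 negative). With limma's array weights, which gave the 1 h array a weight of 0.21 and the 6 h array 3.29, 16 members were called positive (28.6%, against 14.4% of all genes) and 1, Ndufb4, negative (1.79%, against 12.7%).

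**Figure D2:**
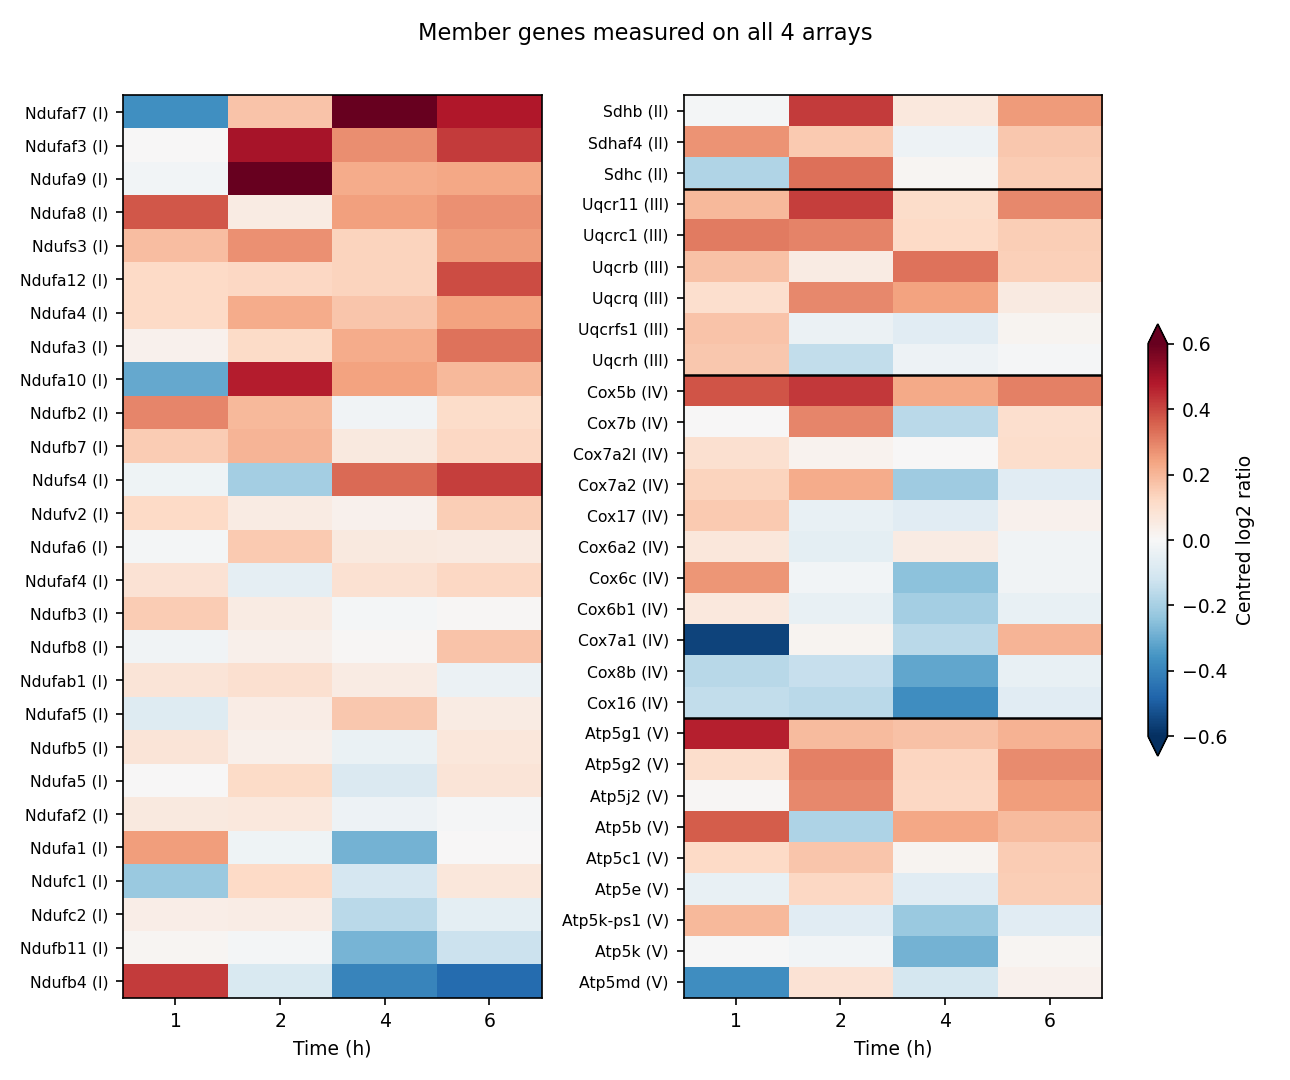
Centred log2 ratio (colour, with limits at -0.6 and 0.6) of the 56 member genes measured on all 4 arrays (rows, with the complex by symbol in parentheses) at 1, 2, 4 and 6 h (columns, 1 array each). Within a complex, genes are ordered by their mean, from Ndufaf7 (0.30) to Ndufb4 (-0.13) in complex I.

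Complex I, the largest complex of the chain, had medians of 0.06, 0.09, 0.06 and 0.12 at 1, 2, 4 and 6 h, with 19, 22, 17 and 22 of 27 genes positive. These 27 and their medians include 5 assembly factors and Ndufa4, which are not subunits of complex I. At 4 h the median was 0.16 for the 5 assembly factors, 0.01 for 19 accessory subunits and 0.08 for 2 core subunits. The catalytic core, which binds NADH and carries the iron-sulfur clusters, was represented on all 4 arrays by 2 of 7 listed nuclear genes. Ndufs3, an iron-sulfur fragment subunit of the core, read 0.19, 0.27, 0.14 and 0.25 (mean 0.21 ± 0.06, SD over the 4 arrays). Ndufv2, the subunit with a cluster near the NADH site, read 0.12, 0.05, 0.02 and 0.15 (0.09 ± 0.06). Both were positive at every time, Ndufs3 with the higher ratios. Neither passed the limma test of the mean (adjusted p = 0.248 and 0.524).

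Of the accessory subunits, which surround the core, 19 of 30 listed genes were measured on all 4 arrays. Their medians were 0.04, 0.09, 0.01 and 0.08. Ndufa9, which sits near the coenzyme Q site, read -0.02, 0.61, 0.22 and 0.23, so its mean of 0.26 ± 0.26 owed most to the 2 h array. Ndufa8 read 0.37, 0.05, 0.25 and 0.27 (mean 0.24 ± 0.13). Ndufa12 read 0.12, 0.13, 0.13 and 0.39 (0.19 ± 0.13). Both were thus positive on every array, with 1 array well apart from the other 3 in each case. Ndufa3 read 0.02, 0.12, 0.22 and 0.33, in order of time. Ndufa10 was negative at 1 h (-0.31) and read 0.47, 0.24 and 0.19 later.

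Other accessory subunits had ratios of both signs. Ndufb4, a subunit of the membrane arm, read 0.42, -0.09, -0.39 and -0.46 at 1, 2, 4 and 6 h. Its slope of -0.35 ± 0.07 per doubling of time (SE) had the smallest unadjusted p of any member slope, 0.00229 (adjusted p = 0.259, limma). Ndufs4, a subunit needed for a stable complex, read -0.03, -0.21, 0.34 and 0.41. Ndufb11 read 0.01, -0.01, -0.28 and -0.13, and Ndufa1 read 0.25, -0.02, -0.28 and 0.00.

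Assembly factors help build complex I and are not part of it. Of the 9 listed, 5 had values on all arrays. Ndufaf7, a methyltransferase that modifies a core subunit, had the widest range of these: -0.37, 0.17, 0.92 and 0.48. Its slope was 0.40 ± 0.12 per doubling of time (unadjusted p = 0.0154, adjusted p = 0.277, limma). Ndufaf3 read 0.00, 0.50, 0.28 and 0.42, near 0 at 1 h and clearly positive on each later array. Ndufaf2, Ndufaf4 and Ndufaf5 had means of 0.02, 0.06 and 0.05. Ndufa4, grouped with complex I by its symbol and now known as a component of complex IV, read 0.12, 0.22, 0.17 and 0.24. Its SD over the arrays, 0.06 around a mean of 0.19, was among the smaller ones.

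Complex II, which is also the succinate dehydrogenase of the citric acid cycle, had 3 genes. Sdhb, the iron-sulfur subunit, read -0.01, 0.42, 0.06 and 0.26. Sdhc, which anchors the enzyme in the membrane, read -0.18, 0.33, 0.01 and 0.15. Both subunits had their lowest value at 1 h and their highest at 2 h. The assembly factor Sdhaf4 read 0.27, 0.16, -0.03 and 0.16, with its highest value at 1 h. None of the 3 means passed (lowest adjusted p = 0.378, limma).

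Complex III had the highest median of the complexes at 1 h and at 4 h, 0.17 and 0.12, with 0.17 and 0.10 at 2 and 6 h. All 6 of its genes taken by symbol were positive at 1 h and 4, 4 and 5 at the later times. Cyc1, the cytochrome c1 of this complex, lies outside the symbol rule and was negative at 1 h (given with the electron carriers below). Uqcrc1, a core protein of the matrix side, read 0.31, 0.30, 0.12 and 0.15 (mean 0.22 ± 0.10). Uqcr11, a small subunit, read 0.20, 0.42, 0.11 and 0.29 (0.25 ± 0.13). Uqcrb, which lies by the coenzyme Q site, read 0.18, 0.05, 0.33 and 0.14, and Uqcrq read 0.10, 0.29, 0.24 and 0.06. These 4 genes were positive on every array. Uqcrfs1, the Rieske iron-sulfur protein that moves the electron to cytochrome c1, read 0.17, -0.04, -0.07 and 0.02, and Uqcrh, the hinge protein, 0.16, -0.15, -0.03 and -0.01. Both of these were positive at 1 h and lay near or below 0 afterwards.

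Complex IV had medians of 0.07, -0.02, -0.16 and -0.02 at 1, 2, 4 and 6 h, and at 4 h 3 of its 11 genes were positive. These 11 include assembly factors and muscle isoforms. The 6 widely expressed subunits alone, with the related Cox7a2l counted as one, had medians of 0.11, 0.12, -0.18 and 0.04. Only 4 h was thus negative. The 3 muscle isoforms had -0.17, -0.06, -0.16 and -0.02. Cox5b, a subunit on the matrix side, stood apart from the other complex IV genes, at 0.38, 0.43, 0.23 and 0.30 (mean 0.33 ± 0.09). Its lowest ratio was above every ratio of the other complex IV genes measured on all arrays except Cox6c at 1 h and Cox7b at 2 h. The other widely expressed subunits were lower at 4 h: Cox6c read 0.26, -0.02, -0.25 and -0.02, and Cox6b1 read 0.06, -0.05, -0.20 and -0.04. Cox7b read 0.00, 0.29, -0.16 and 0.10. The assembly factor Cox16 was negative on every array, at -0.15, -0.16, -0.37 and -0.07 (mean -0.19 ± 0.13). Cox17, the copper chaperone, read 0.16, -0.05, -0.07 and 0.02.

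Several complex IV subunits exist as isoforms, one found in most tissues and one best known from heart and skeletal muscle. Cox7a1, the muscle form, read -0.55, 0.02, -0.16 and 0.20. Cox7a2, the widespread form, read 0.13, 0.22, -0.21 and -0.07. The related Cox7a2l read 0.10, 0.02, 0.00 and 0.11. Cox7a1 was thus the lowest of the 3 at 1 and 2 h and the highest at 6 h. Cox8b, a muscle form, read -0.17, -0.14, -0.31 and -0.05 and was negative on every array, and its widespread partner Cox8a had no value. Cox6a2, another muscle form, stayed between -0.06 and 0.07, and its partner Cox6a1 had no value. No intensities were used here to tell how far the muscle forms stood above background.

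**Figure D3:**
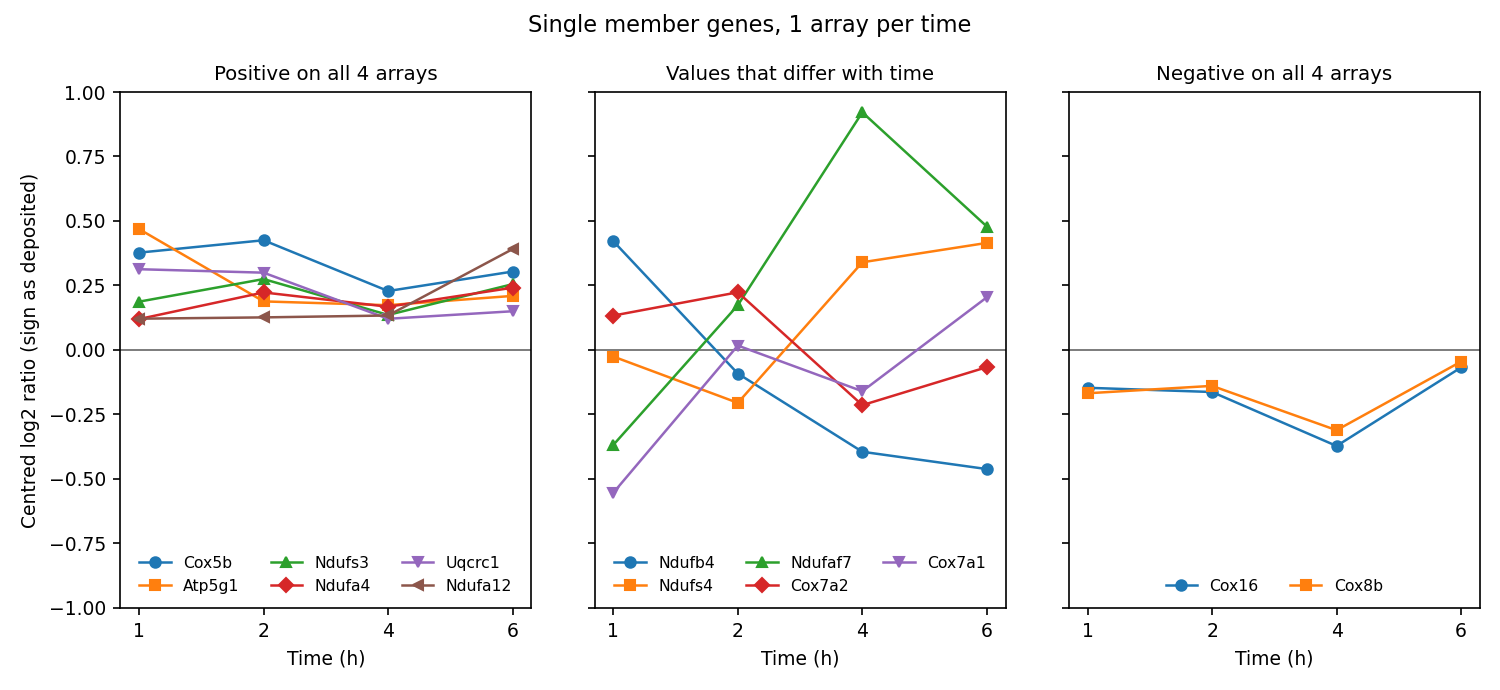
Centred log2 ratio (vertical axis) at 1, 2, 4 and 6 h (horizontal axis, times evenly spaced) of single member genes, each point from 1 array. The left panel holds the 6 genes with the largest smallest ratio among those positive on all arrays, the middle panel genes whose values differ with time, such as Ndufb4 (0.42 at 1 h and -0.46 at 6 h), and the right panel the 2 genes negative on all arrays.

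The ATP synthase had medians of 0.11, 0.12, 0.02 and 0.15, with 6, 6, 5 and 8 of 9 genes positive. These 9 and their medians include the pseudogene Atp5k-ps1. Atp5b, the catalytic beta subunit of the F1 head, read 0.36, -0.18, 0.23 and 0.19. Atp5c1, the rotating gamma shaft, read 0.12, 0.17, 0.02 and 0.15. Only Atp5b was negative at 2 h among these F1 genes, and Atp5e, the epsilon subunit, changed sign from array to array (-0.04, 0.12, -0.07 and 0.15). The membrane ring is made of copies of 1 small protein encoded by several genes. Atp5g1 read 0.47, 0.19, 0.17 and 0.21 and Atp5g2 read 0.11, 0.30, 0.13 and 0.28, so both ring genes measured were positive at every time. Atp5j2, a membrane subunit, read 0.00, 0.29, 0.12 and 0.25. Atp5md had its lowest value at 1 h (-0.37) and lay between -0.11 and 0.09 later. Atp5k read -0.0011, -0.02, -0.28 and 0.01. The feature named for its pseudogene Atp5k-ps1, which may share sequence with Atp5k, read 0.20, -0.07, -0.22 and -0.07.

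For 5 genes more than 1 feature had values on all arrays, which shows how far features of 1 gene differed on the same array. The features of Atp5c1 differed by 0.03 to 0.07. Those of Atp5j2 ran in parallel, at 0.09, 0.42, 0.23 and 0.28 and at -0.08, 0.16, 0.02 and 0.22. The Atp5g1 features differed more: one read 0.28, 0.53, 0.29 and 0.39, and the other 0.66, -0.16, 0.06 and 0.03. The positive ratios of Atp5g1 on every array thus hold for their mean and for 1 feature. The Cox7a1 features were both negative at 1 h (-0.70 and -0.40) and both positive at 6 h (0.11 and 0.30), with opposite signs at 2 h. The 3 Ndufab1 features read 0.69, -0.12 and -0.33 at 1 h, and a further feature without values at 4 and 6 h read -0.17 at that time. The highest and lowest of them lay 1.02 apart, wider than any ratio of the 56 genes. With features that lacked values on some arrays counted too, 6, 5, 5 and 6 genes had several features at 1, 2, 4 and 6 h. The median gap between features of these genes was 0.29, 0.26, 0.20 and 0.20. A further Uqcrq feature, with a value at 6 h only, read 0.26 where the first read 0.06.

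**Figure D4:**
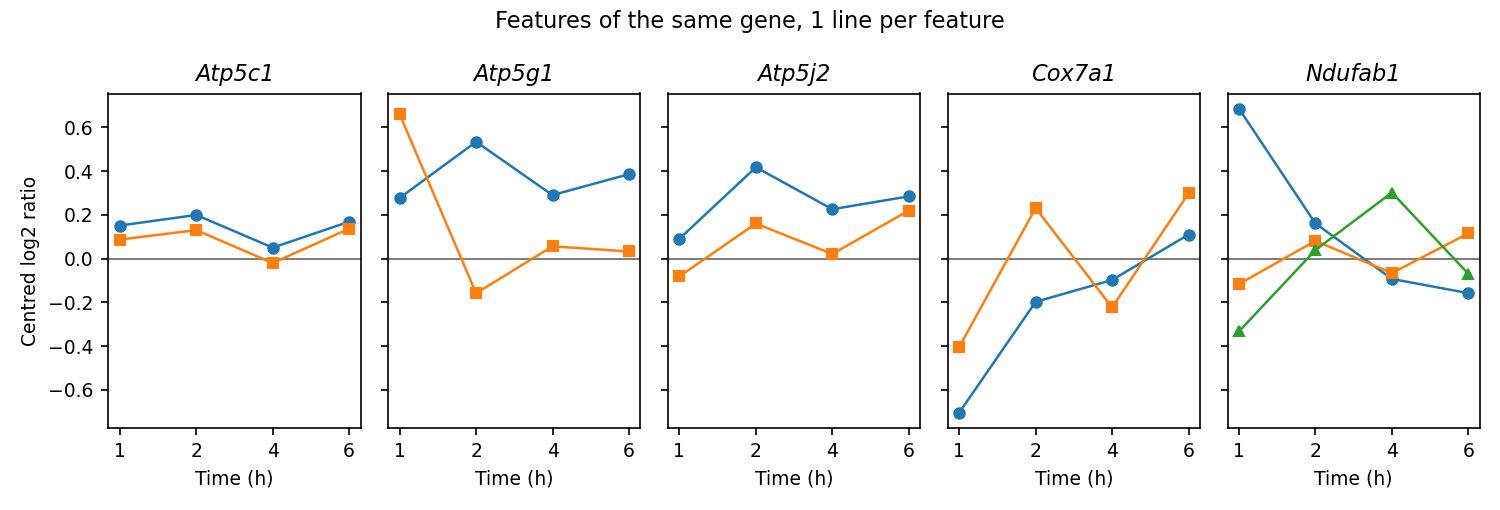
Centred log2 ratio (vertical axis) at 1, 2, 4 and 6 h (horizontal axis) of each feature of the 5 member genes with several features measured on all arrays. Each line is 1 feature; the lines of Atp5c1 lie close together, and those of Atp5g1 lie apart most at 2 h (by 0.69) and those of Ndufab1 at 1 h (by 1.02).

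A further 12 member genes had values on fewer arrays and were left out of the tests above. Atp5a1, the alpha subunit of the F1 head, read 0.54, 0.38 and 0.29 at 2, 4 and 6 h. Cox4i1, the widespread form of a regulatory subunit of complex IV, read 0.47, 0.08 and 0.22 at these times. Both were positive wherever they had a value, and both lacked one at 1 h. Atp5pb, of the stalk that holds the head still, read 0.16, 0.20 and 0.15 at 1, 4 and 6 h, and Atp5l read 0.09, 0.02 and 0.12. Ndufa2 read 0.27, -0.05 and 0.06 at 2, 4 and 6 h, Ndufb10 read -0.06, 0.14 and 0.09 at 1, 4 and 6 h, and the pseudogene feature Ndufs5-ps read 0.02, 0.22 and 0.21 at the same times. Cox5a had values at 1 and 2 h alone, -0.31 and -0.12, and Atp5h at 4 and 6 h, 0.05 and 0.31. A feature of Atp5j, a stalk subunit, held the lowest value of any member, -2.57 at 4 h, with -0.25 at 1 h and no value at 2 and 6 h, while its other feature read 0.03 at 1 h and had no further value. Ndufa11 (0.04) and Atp5d (-0.08) had a value at 2 h only. The genes with no value at all were Ndufa13, Cox6a1, Cox7c, Cox8a and Atp5o.

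With time as the question, 0 of 56 slopes on log2 hours passed in limma (0.00% of all genes), with 2 positive and 1 negative at an unadjusted p under 0.05, where 7.73% and 7.70% of all genes were. These were Ndufaf7, Cox7a1 (slope 0.23 ± 0.09, SE) and Ndufb4. Between 4 and 6 h and 1 and 2 h, limma likewise placed 0 members past the threshold (0.00% of all genes), with Ndufs4 and Ndufaf7 higher and Ndufb4 lower at an unadjusted p under 0.05, as were 3.21% and 2.46% of all genes. Without the 2 h array, Ndufb4, Ndufaf7 and Ndufa10 passed (adjusted p = 0.015, 0.0283 and 0.0311), as did 20.7% of all genes. The 1 h array alone then stood for early times and was assumed to vary like the others.

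Genes that work beside the chain were taken from fixed lists. None of their genes passed the limma test of the mean over the 4 arrays, and neither did any of the 6661 genes. At an unadjusted p under 0.05 the positive and negative counts were 2 and 0 for exchange and 1 and 1 for electron carriers. They were 0 and 1 for assembly factors, 0 and 1 for regulators and 3 and 0 for coenzyme Q synthesis. Of all genes, 8.17% were positive and 7.03% negative at that limit. Of 10 carriers and channels that move nucleotides and phosphate, 3, 5, 8 and 8 were positive at 1, 2, 4 and 6 h. Their ratios spanned -0.36 to 0.32, -0.48 to 0.54, -0.05 to 1.40 and -0.24 to 1.35. The 1.35 at 6 h was the highest ratio of all 6661 genes at that time. For late against early times the lowest adjusted p in this list was 0.214 (limma), also the lowest of all genes. Among these carriers Slc25a3, the phosphate carrier that feeds the ATP synthase, read 0.29, 0.54, 0.35 and 0.32 (adjusted p = 0.229). Without the 1 h array Slc25a3 and Vdac2, an outer membrane channel, passed (adjusted p = 0.0265 and 0.0383), where 7.06% of all genes were called positive. Slc25a3 was thus positive on every array, as Cox5b was. Of 7 electron carriers 2, 2, 3 and 4 were positive. Cyc1, the cytochrome c1 of complex III, read -0.23, 0.08, 0.16 and 0.07, and cytochrome c itself, Cycs, read -0.06, -0.0035, -0.10 and -0.04.

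Of 15 assembly factors outside the symbol rule 4, 8, 9 and 9 were positive. Surf1, an assembly factor of complex IV (-0.26, 0.24, 0.21 and 0.35), and Lyrm7, of complex III (-0.09, 0.48, 0.29 and 0.26), passed without the 1 h array (adjusted p = 0.0415 and 0.0356). Both were negative at 1 h alone. Among all genes, 7.06% were called positive without that array. Of 10 regulators of mitochondrial genes 4, 3, 5 and 4 were positive, with medians of -0.09, -0.07, -0.03 and -0.03. The coactivator Ppargc1a read -0.31, -0.20, 0.19 and 0.02, the mitochondrial transcription factor Tfam read 0.10, 0.05, 0.01 and 0.07, and Gabpb1, a GABP subunit, read -0.22, 0.35, 0.15 and 0.20. Yy1 read 0.11, -0.06, -0.06 and -0.10. Of 5 coenzyme Q synthesis genes 4 were positive at each time, with medians of 0.12, 0.10, 0.12 and 0.18. No member of the electron carrier, regulator or coenzyme Q lists passed without the 1 h array.

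**Figure D5:**
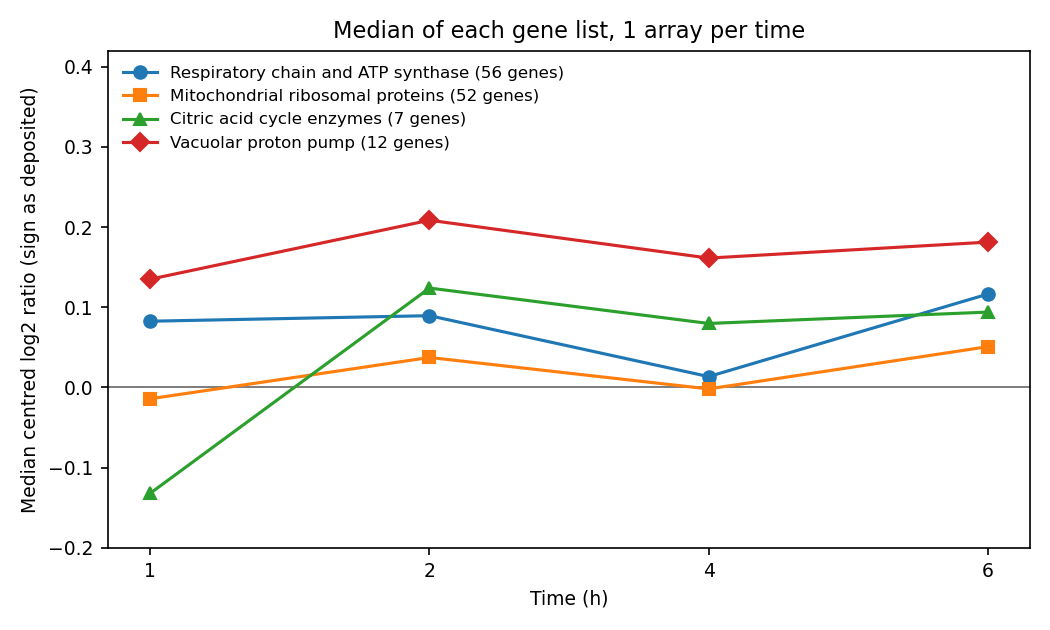
Median centred log2 ratio (vertical axis) of 4 gene lists at 1, 2, 4 and 6 h (horizontal axis, times evenly spaced, 1 array each). The respiratory chain and ATP synthase line lies at 0.08, 0.09, 0.01 and 0.12, above that of the mitochondrial ribosomal proteins and below that of the vacuolar proton pump at every time.

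Set beside the lists most like them, the members had higher medians than 52 mitochondrial ribosomal protein genes (-0.01, 0.04, -0.0018 and 0.05) and lower ones than 12 genes of the vacuolar proton pump (0.14, 0.21, 0.16 and 0.18). The 7 citric acid cycle genes read -0.13, 0.12, 0.08 and 0.09 at the median. In the limma fit of the mean, 6 pump genes were positive and 0 negative at an unadjusted p under 0.05. The counts were 6 and 5 for the ribosomal protein genes, 0 and 1 for the citric acid cycle and 13 and 1 for the members. Called positive without the 1 h array were 5 pump, 4 ribosomal protein and 1 citric acid cycle genes, beside 3 members. Called negative were 0, 1, 1 and 0. Differences between lists or complexes were not tested, since genes of 1 array are not replicates. Markers of other cells were read on the same arrays. None passed the limma test of the mean over the 4 arrays, and neither did any of the 6661 genes. Without the 1 h array, limma called 3 of 6 astrocyte markers positive. It called 2 of 3 choroid plexus, 1 of 3 pyramidal cell and 1 of 4 vessel markers negative, and no marker of the other types. Of all genes, 7.06% were called positive without that array and 5.89% negative. The medians at 1, 2, 4 and 6 h were -0.07, 0.16, 0.36 and 0.19 for 6 of 6 listed astrocyte markers, -0.07, 0.11, 0.15 and 0.07 for 7 of 7 interneuron markers, 0.02, 0.10, 0.15 and 0.07 for 5 of 6 oligodendrocyte markers and -0.05, 0.03, 0.02 and 0.18 for 6 of 7 microglial markers. They were 0.00, -0.89, -0.60 and -0.70 for 3 of 7 choroid plexus markers, -0.01, -0.03, -0.06 and 0.11 for 4 of 6 vessel markers, and -0.07, -0.36, -0.12 and -0.04 for 3 of 7 pyramidal cell markers. The 4 granule cell markers had medians of -0.02, 0.03, -0.02 and 0.00. Only 1 of 7 blood markers was measured, and it read 0.27, 0.50, 0.09 and 0.21. The part of cell composition in the members' ratios was not tested.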

How the data were processed

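The deposited table holds 1 log ratio per feature and array, which is read here as log2. The authors' scanning, background correction and normalisation are not given in the sources used here. An exact 0 was read as no value. Features were named through the platform annotation, of which 13738 had 1 symbol, 52 several and 2491 none. By Entrez identifier 13694 matched the gene table of assembly GRCm38.p6, and 0 symbols changed. A gene's value is the mean of its features measured on all 4 arrays. limma 3.58.1 (R 4.3.3; lmFit and eBayes, two-sided, Benjamini-Hochberg over 6661 genes) tested the mean over arrays against 0, the slope on log2 hours, and 4 and 6 h against 1 and 2 h, and was tested on simulated data. With 1 array per time the times stand in for replicates, so p-values measure the spread between arrays, which may be technical. A dye bias of a gene enters every array alike. The number of arrays limits the precision. The members and lists were chosen with earlier results of these data known. Genes were named by a fixed rule. It took the 3 largest absolute means per complex, and the 3 highest and 3 lowest features at each time. Among genes of the same sign on all 4 arrays, it took at most 6 per direction, those with the largest smallest absolute ratio. Only 2 such genes were negative. The rule also took core subunits of complex I, complex II, isoforms and genes with several features. Other genes named were chosen after their values were seen.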

Additional observations from a re-analysis of the deposited data

Results flagged for a closer look

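For 4 of the 56 genes (7.14%, against 9.74% of all 6661 genes) both early arrays (1 and 2 h) had one sign and both late arrays (4 and 6 h) the other. Ndufs4, an accessory subunit of complex I, differed by 0.493 between the late and the early mean (-0.03 and -0.21, then 0.34 and 0.41). Cox7a2, the widespread form of its complex IV subunit, differed by -0.319 (0.13 and 0.22, then -0.21 and -0.07). The accessory subunit Ndufc2 differed by -0.151 (0.04 and 0.04, then -0.16 and -0.06) and the complex I assembly factor Ndufaf2 by -0.0771 (0.06 and 0.06, then -0.03 and -0.01). In the limma fit of late against early times none of the 4 passed (lowest adjusted p = 0.754), with unadjusted p = 0.0139 for Ndufs4, 0.0575 for Cox7a2, 0.273 for Ndufc2 and 0.542 for Ndufaf2. With 1 array per time no group held enough samples for a test of outlying arrays.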

How the results depend on the processing

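The median ratio of the members kept its sign at all 4 times under each alternative run: no centring, centring on all deposited values, exact 0 as a value, equal spread of the arrays, quantile normalisation, 1 feature per gene, values on at least 3 arrays, and subunits only. It moved by less than its SD over the arrays, 0.04, but the medians are small, and some moved by over 1.5 times. With exact 0 as a value those at 1 and 2 h were 0.0473 and 0.0505, with centring on all deposited values that at 1 h was 0.0509, and that at 4 h was 0.0286 with no centring, 0.00862 with 1 feature per gene and 0.0235 when genes on 3 arrays were added. The centring on all deposited values and the list of subunits only were chosen after seeing the data. The means of the named genes kept their sign and stayed uncalled in all 224 values recomputed under these alternatives other than subunits only. Members called in the mean numbered 17 with array weights. Of these, 16 were positive (28.6%, against 14.4% of all genes) and 1 negative (1.79%, against 12.7%). Members called in the mean numbered 0 to 3 when single arrays were left out. The 3 were called without the 1 h array, all positive (5.36%, against 7.06% of all genes). Called late against early, they numbered 0 to 3, the 3 without the 2 h array. No other alternative called a member in any of the 3 tests. At an absolute ratio of at least 1, 0 members passed at 1, 2 and 4 h. With equal spread, 0 members passed 0.5 at 1 h, 3 at 2 h and 2 at 6 h. The shares of all genes past these limits were not counted, so these counts have no background beside them. No intensities were used here, so weak signals could not be set apart.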
